A study of Mus musculus with 12 samples.

Results

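The 10 genes described here are markers of liver sinusoidal endothelial cells: Stab1, Stab2, Lyve1, Fcgr2b, Clec4g, Kdr, Pecam1, Calcrl, Bmp2 and Oit3. They were chosen by name, and all 10 were found among the 52636 genes of the deposited table and passed the filter on low values. Sinusoidal endothelial cells line the capillaries of the liver lobule. Their walls are fenestrated and lack a continuous basement membrane, and their surface carries scavenger and lectin receptors that take waste macromolecules and small immune complexes out of the blood. They also signal to hepatocytes, for example through bone morphogenetic proteins that set hepcidin, the hormone of iron balance.

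The libraries were made from polyA RNA of liver cells of 6 mice with steatotic livers. Per the labels' protocols, viable hepatocytes were parted by lipid content on a Percoll gradient with differential centrifugation, which was also meant to leave out dead hepatocytes and non-parenchymal cells, the class to which sinusoidal endothelium belongs. The 12 libraries fall into 4 groups of 3: low-fat and high-fat hepatocytes of wild-type (WT) mice, and low-fat and high-fat hepatocytes of Ptprk knockout (KO) mice. Ptprk encodes a receptor-type tyrosine phosphatase. Each mouse gave 1 low-fat and 1 high-fat library. Mice are numbered here by the replicate number in the sample titles, so that WT mice 1, 2 and 3 carry the codes WT1, WT5 and WT6 in the labels and KO mice 1, 2 and 3 the codes KO2, KO4 and KO6. Strain, age, sex, diet and the kind of knockout are not given in the sources used here.

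Values are read counts of a gene scaled so that each library holds 20 M reads (M, mega), rounded up, and are called reads per 20 M. Depth, estimated from the spacing of low values, ranged from 15.1 M to 25 M reads, so that 3 reads were worth 2.40 to 3.98 reads per 20 M, and the lowest value of a marker was 21. The targeted gene went with the labels: in low-fat libraries Ptprk stood at 2788 ± 83.7 reads per 20 M for WT against 1271 ± 135 for KO, and in high-fat libraries at 2407 ± 209 against 1200 ± 19.3 (mean ± SD, n = 3 each). Its KO level was 45.7% of WT in the low-fat fraction (limma adjusted p = 0.0013) and 50.2% in the high-fat fraction (limma adjusted p = 0.00501). The labels were also checked against hepatocyte genes: a list of 10, which includes Alb and Cps1, summed to between 617992 and 702465 reads per 20 M in every library, against 1076 to 14483 for the 10 endothelial markers.

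RefSeq promoter entries (GRCm38.p6) were found for 6 of the 10 markers. The 250 bases before the RefSeq start of 5 of them are shown. They were looked at because the markers moved together and because ETS, GATA, MAF and SOX factors are known regulators of endothelial genes. Each sequence is given 5′ to 3′ on the strand of its gene, and capitals mark matches on either strand to 4 core motifs. The ETS motif searched was AGGAAG. For GATA factors the letters were AGATAA. The MAF half-site was TGCTGA. For SOX factors AACAAT was searched.
Stab1, chr14:31168642-31168891, minus strand: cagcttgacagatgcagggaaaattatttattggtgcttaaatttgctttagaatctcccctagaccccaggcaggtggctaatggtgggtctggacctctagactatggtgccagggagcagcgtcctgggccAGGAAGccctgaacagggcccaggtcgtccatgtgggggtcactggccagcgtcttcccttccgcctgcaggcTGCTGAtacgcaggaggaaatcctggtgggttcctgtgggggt
Stab2, chr10:87007943-87008192, minus strand: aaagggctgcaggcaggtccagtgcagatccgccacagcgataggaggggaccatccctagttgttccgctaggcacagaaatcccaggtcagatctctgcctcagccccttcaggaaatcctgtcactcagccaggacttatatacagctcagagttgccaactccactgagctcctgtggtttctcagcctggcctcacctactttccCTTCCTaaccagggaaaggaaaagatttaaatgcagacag
Clec4g, chr8:3720652-3720901, minus strand: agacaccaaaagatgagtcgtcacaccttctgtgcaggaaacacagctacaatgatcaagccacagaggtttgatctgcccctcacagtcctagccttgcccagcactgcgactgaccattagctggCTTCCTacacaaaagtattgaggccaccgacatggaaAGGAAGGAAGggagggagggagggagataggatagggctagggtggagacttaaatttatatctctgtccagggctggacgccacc
Calcrl, chr2:84425267-84425516, minus strand: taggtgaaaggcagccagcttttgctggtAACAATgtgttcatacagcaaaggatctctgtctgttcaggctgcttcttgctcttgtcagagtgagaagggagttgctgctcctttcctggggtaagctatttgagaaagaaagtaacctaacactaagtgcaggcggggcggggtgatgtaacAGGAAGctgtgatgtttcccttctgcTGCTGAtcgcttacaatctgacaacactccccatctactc
Kdr, chr5:75978456-75978705, minus strand: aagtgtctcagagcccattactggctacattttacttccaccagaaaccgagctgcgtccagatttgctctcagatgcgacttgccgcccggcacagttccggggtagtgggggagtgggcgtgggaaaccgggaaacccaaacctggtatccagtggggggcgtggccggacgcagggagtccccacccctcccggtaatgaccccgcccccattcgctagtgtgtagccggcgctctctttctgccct

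The ETS letters were found in 4 of the 6 windows, in those of Stab1, Stab2, Clec4g and Calcrl, and in 29.5% of all 32851 windows of this length. In the Clec4g window 2 of its 3 matches overlap each other. The MAF half-site was found in the windows of Stab1 and Calcrl (16.1% of all windows) and the SOX letters in that of Calcrl (9.42%). The GATA letters were in 0 of the 6 windows (9.99% of all), and the windows of Kdr and Fcgr2b held none of the 4 motifs. RefSeq and GENCODE M21 place some starts differently. The GENCODE spans of Stab2, Calcrl and Kdr reach into their windows, and the Fcgr2b window lies within the GENCODE span of its gene. The ETS match of Stab2 and the ETS and MAF matches of Calcrl lie in these overlaps, so they are upstream by RefSeq only. Such matches describe letters and no binding was measured.

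All 10 markers were higher in high-fat than in low-fat hepatocyte libraries, by 2.73-fold (Stab2) to 4.14-fold (Lyve1). Paired within mouse, limma called 10 of 10 higher at an adjusted p under 0.05, against a background of 6.76% of the 16563 genes tested. The median log2 fold change of the markers was 1.82 (range 1.45 to 2.05), and that of all genes tested was -0.022. For 10 of 10 markers each of the 6 high-fat libraries lay above each of the 6 low-fat libraries, which was so for 4.44% of all genes. The markers were higher in the high-fat library of every mouse, in 10 of 10 cases, as were 9.96% of all genes. A two-sided exact sign-flip test over the 6 mice gave p = 0.031 for each marker, the smallest value that 6 mice allow. The markers followed each other closely over the libraries, as given below, so these are not 10 independent results. In bulk RNA, fewer cells of a type and less RNA per cell cannot be told apart, so these values do not say how many endothelial cells were present.

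Over all genes tested limma called 1119 genes higher in the high-fat fraction and 700 lower. With the deposited scaling alone these counts were 1179 and 342, and the 10 markers were again called higher. Without the mouse as a block 836 genes were called higher and 120 lower, and the 10 markers were among the former. Leaving out 1 mouse also moved these counts. They were 427 and 124 without WT mouse 1, 454 and 197 without WT mouse 2, and 758 and 246 without WT mouse 3. Without KO mouse 1, 2 or 3 they were 996 and 583, 1548 and 1114, and 711 and 218. The background share moves with them, while 9 or 10 of the 10 markers were called in each of these fits.

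The scavenger and endocytic receptors come first. Stab1 (chromosome 14, 31139013 to 31168641, minus strand) and Stab2 (chromosome 10, 86841198 to 87008025, minus strand) encode stabilin 1 and stabilin 2, large receptors that clear modified proteins and, in the case of stabilin 2, hyaluronan. Stab1 read 333, 389 and 375 reads per 20 M in the low-fat libraries of WT mice 1, 2 and 3, and 2761, 1404 and 899 in their high-fat libraries. In KO mice 1, 2 and 3 it read 152, 372 and 317 in low-fat and 1892, 977 and 775 in high-fat libraries. The fractions of Stab1 did not overlap, and its 5 low-fat values other than that of KO mouse 1 lay close together. Its log2 fold change was 2.02 (SE 0.31, n = 6 mice, limma adjusted p = 0.00815), or 4.05-fold.

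Stab2 was the most abundant of the 10 by reads. Its low-fat values were 751, 998 and 968 reads per 20 M for WT and 402, 894 and 769 for KO mice. High-fat libraries held 3803, 2273 and 1824 reads per 20 M for WT and 2678, 1728 and 1430 for KO mice. Stab2 had the smallest fold change of the list, 1.45 on the log2 scale (SE 0.25, n = 6 mice, limma adjusted p = 0.0113). The estimates of the stabilins differed. The log2 ratio of Stab1 to Stab2 within a library was higher by 0.572 in the high-fat fraction (1.49-fold, SD 0.21 over mice) and higher in 6 of 6 mice. This pair was picked after its values were seen, so the ratio is given without a test.

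Lyve1 (chromosome 7, 110850607 to 110863239, minus strand) encodes a hyaluronan receptor of lymphatic and sinusoidal endothelium. It was the least abundant marker by reads, with 48, 37 and 40 reads per 20 M in the low-fat libraries of WT and 21, 31 and 25 in those of KO mice. In high-fat libraries it reached 425, 111 and 89 in WT and 188, 113 and 107 in KO mice. The value of WT mouse 1 exceeded all others, and the other 5 high-fat values lay between 89 and 188. The log2 fold change of Lyve1 was 2.05 (SE 0.26, n = 6 mice, limma adjusted p = 0.00473).

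Fcgr2b (chromosome 1, 170958617 to 170976547, minus strand) encodes the inhibitory IgG receptor with which sinusoidal endothelium takes up small immune complexes, and which B cells and macrophages carry as well. WT low-fat libraries held 267, 254 and 247 reads per 20 M and KO low-fat libraries 94, 183 and 195. The high-fat values were 1224, 664 and 528 in WT and 810, 529 and 412 in KO mice. The rise of Fcgr2b was 3.18-fold (log2 1.67, SE 0.23, n = 6 mice, limma adjusted p = 0.00617). The 5 B cell markers summed to 10 to 264 reads per 20 M in low-fat and 12 to 129 in high-fat libraries. From low-fat to high-fat this sum went up in 4 of 6 mice, with ratios from 0.0909 to 3.23. Kupffer cell markers, given below, rose with Fcgr2b. The part of B cells and of Kupffer cells in the rise of Fcgr2b was not tested.

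Clec4g (chromosome 8, 3707064 to 3720651, minus strand) encodes a C-type lectin of sinusoidal endothelium. Its low-fat values were 239, 179 and 210 reads per 20 M for WT and 86, 142 and 149 for KO mice, and 1178, 593 and 478 in the high-fat libraries of WT and 717, 424 and 329 in those of KO mice. The lowest high-fat value of Clec4g, in KO mouse 3, exceeded the highest low-fat value, in WT mouse 1. It rose 3.40-fold (log2 1.77, SE 0.22, n = 6 mice, limma adjusted p = 0.0047).

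**Figure D1:**
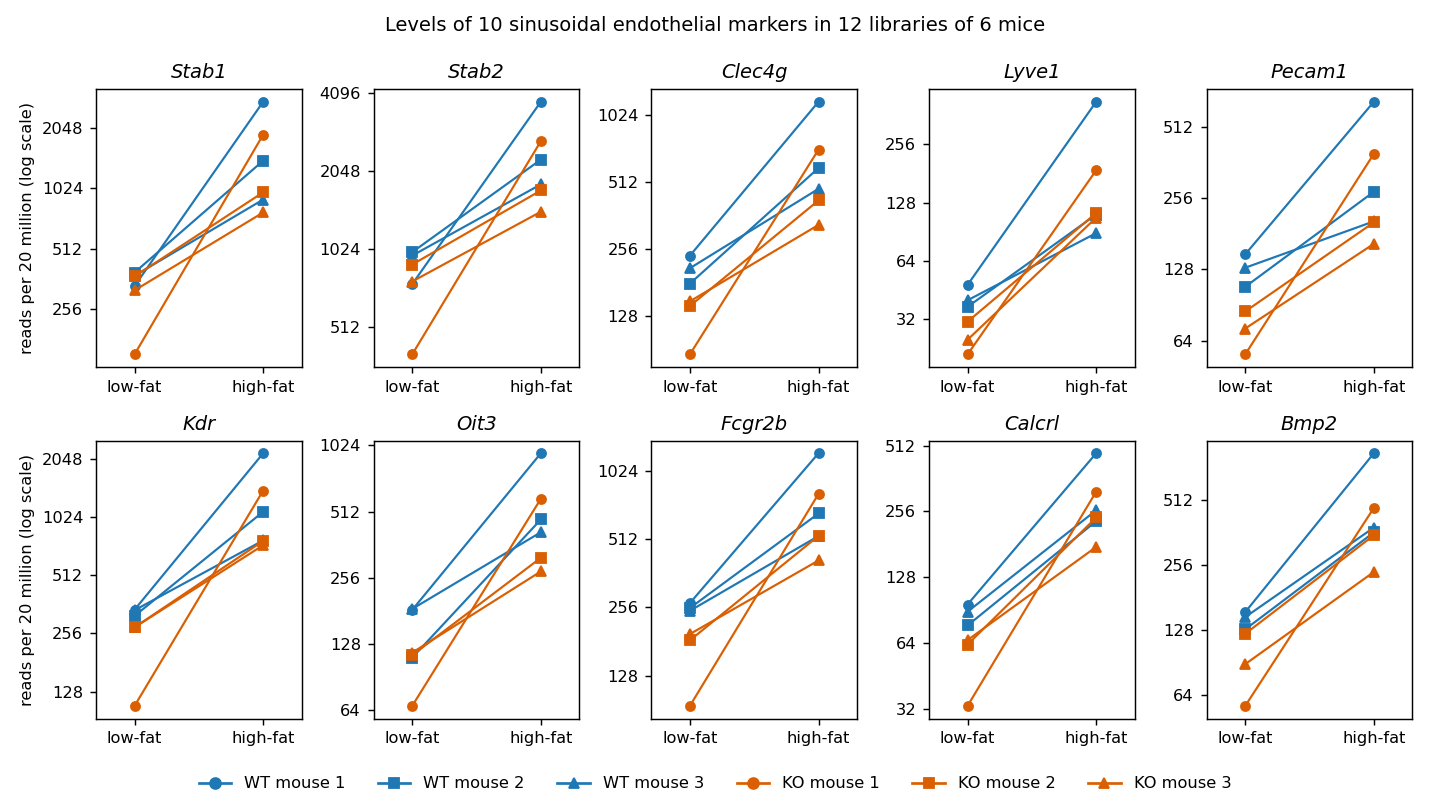
Levels of the 10 markers in the low-fat and high-fat library of each mouse, in reads per 20 M on a log axis; a line joins both libraries of 1 mouse, with WT in blue and KO in orange. Every line rises, and for each marker the highest point is the high-fat library of WT mouse 1 and the lowest the low-fat library of KO mouse 1.

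The vascular receptors and the adhesion molecule moved the same way. Kdr (chromosome 5, 75932827 to 75978458, minus strand) encodes the main signalling receptor for vascular endothelial growth factor A. Kdr read 339, 315 and 337 reads per 20 M in the low-fat libraries of WT and 108, 275 and 275 in those of KO mice. High-fat libraries gave 2180, 1088 and 773 in WT and 1399, 769 and 731 in KO mice. Low-fat WT values were tight (SD 13.3 around 330.3, n = 3), whereas the KO group was spread by the low value of mouse 1 (SD 96.4 around 219.3, n = 3). The log2 fold change of Kdr was 1.98 (SE 0.29, n = 6 mice, limma adjusted p = 0.00695).

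Pecam1 (chromosome 11, 106654217 to 106750628, minus strand) encodes an adhesion molecule of endothelial junctions that platelets and leukocytes also carry. It read 148, 108 and 130 reads per 20 M in the low-fat libraries of WT and 56, 85 and 72 in those of KO mice, and 652, 272 and 204 in the high-fat libraries of WT and 393, 202 and 164 in those of KO mice. Its fractions came closest to each other, with a highest low-fat value of 148 in WT mouse 1 and a lowest high-fat value of 164 in KO mouse 3. Pecam1 rose 2.80-fold (log2 1.49, SE 0.23, n = 6 mice, limma adjusted p = 0.00842). Of the 4 platelet and megakaryocyte genes, Ppbp and Pf4 did not exceed 5 reads per 20 M in any library, and Itga2b read 18 to 40 in low-fat and 32 to 72 in high-fat libraries. The list summed to 19 to 45 and 37 to 75 and was the higher in the high-fat fraction for 6 of 6 mice. Its part in the rise of Pecam1 was not tested.

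Calcrl (chromosome 2, 84330626 to 84425411, minus strand) encodes a receptor that pairs with RAMP proteins to bind adrenomedullin or calcitonin gene-related peptide. Calcrl values were 96, 77 and 89 reads per 20 M in the low-fat libraries of WT and 33, 63 and 66 in those of KO mice, against 472, 231 and 259 in the high-fat libraries of WT and 315, 240 and 176 in those of KO mice. Its standard error was the smallest of the list, with a log2 fold change of 1.92 (SE 0.20, n = 6 mice, limma adjusted p = 0.00382).

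The secreted products were higher too. Bmp2 (chromosome 2, 133552159 to 133562885, plus strand) encodes a bone morphogenetic protein, 1 of the signals by which endothelium sets hepcidin in hepatocytes. Bmp2 read 155, 129 and 147 reads per 20 M in the low-fat libraries of WT and 57, 123 and 89 in those of KO mice, and 844, 363 and 382 in the high-fat libraries of WT and 471, 352 and 238 in those of KO mice. This was a 3.50-fold rise (log2 1.81, SE 0.21, n = 6 mice, limma adjusted p = 0.00412).

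Oit3 (chromosome 10, 59422958 to 59441778, minus strand) encodes a secreted protein with a zona pellucida domain. It read 183, 111 and 185 reads per 20 M in the low-fat libraries of WT and 67, 114 and 117 in those of KO mice. In the high-fat libraries Oit3 reached 944, 472 and 413 in WT and 586, 316 and 274 in KO mice. The low-fat values of Oit3 overlapped between genotypes, those of the fractions did not, and the rise was 3.57-fold (log2 1.83, SE 0.24, n = 6 mice, limma adjusted p = 0.00519).

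Coordinates are those of GENCODE M21 on GRCm38, where all 10 genes are protein-coding. Stab1 overlaps Nt5dc2, Clec4g overlaps Gm16553, Fcgr2b overlaps Gm38204 and Stab2 overlaps 5 genes, each on the opposite strand. Strandedness is not given in the sources used here, so reads of these pairs cannot be told apart. Per kb of exon, the mean high-fat level was 261 for Stab2 (163 to 434 over libraries), 252 for Clec4g (134 to 478) and 180 for Oit3 (98.3 to 339), all in reads per 20 M per kb. Stab1 (141), Kdr (128), Bmp2 (124) and Fcgr2b (120) followed, and Lyve1 (59.0), Calcrl (57.8) and Pecam1 (50.5) were lowest. Neighbours in this order overlapped in their libraries' ranges.

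The mice differed more than the markers did. The median high-fat to low-fat ratio over the 10 markers was 5.11 in WT mouse 1, 3.0 in WT mouse 2 and 2.25 in WT mouse 3. In KO mice 1, 2 and 3 it was 8.68, 2.83 and 2.39. Both mice numbered 1 therefore had the largest ratios, from 4.41 (Pecam1) to 8.85 (Lyve1) in WT and from 6.66 (Stab2) to 13.0 (Kdr) in KO. The other 4 mice spanned 1.57 (Pecam1 in WT mouse 3) to 4.28 (Lyve1 in KO mouse 3). The high-fat library of WT mouse 1 was the highest of all 12 for 10 of 10 markers, and the low-fat library of KO mouse 1 the lowest for 10 of 10. Without both mice numbered 1, a choice made after seeing these values, limma called 10 of 10 markers higher and their median log2 fold change was 1.44 (range 0.988 to 1.62). Of all 15951 genes tested in that fit, 851 were called higher.

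Within mice the order of the markers was partly shared. Stab2 had the smallest ratio in KO mice 1, 2 and 3 and in WT mouse 2, and Pecam1 in WT mice 1 and 3. The largest ratio belonged to Lyve1 in WT mouse 1 and KO mouse 3, to Calcrl in WT mouse 3 and KO mouse 2, to Oit3 in WT mouse 2 and to Kdr in KO mouse 1. Set against Pecam1 in the same library, which is free of the scaling between libraries, Stab1 rose further by 0.532, Lyve1 by 0.561 and Kdr by 0.493 on the log2 scale, and each did so in 6 of 6 mice. Calcrl (0.429), Oit3 (0.348) and Bmp2 (0.322) did likewise in 6 of 6 mice. Clec4g (0.278) and Fcgr2b (0.18) did so in 5 of 6 mice, and Stab2 differed by -0.0403, higher in 2 mice and lower in 4. Pecam1 was taken as the reference after its small ratios were seen, and these differences are given without a test.

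**Figure D2:**
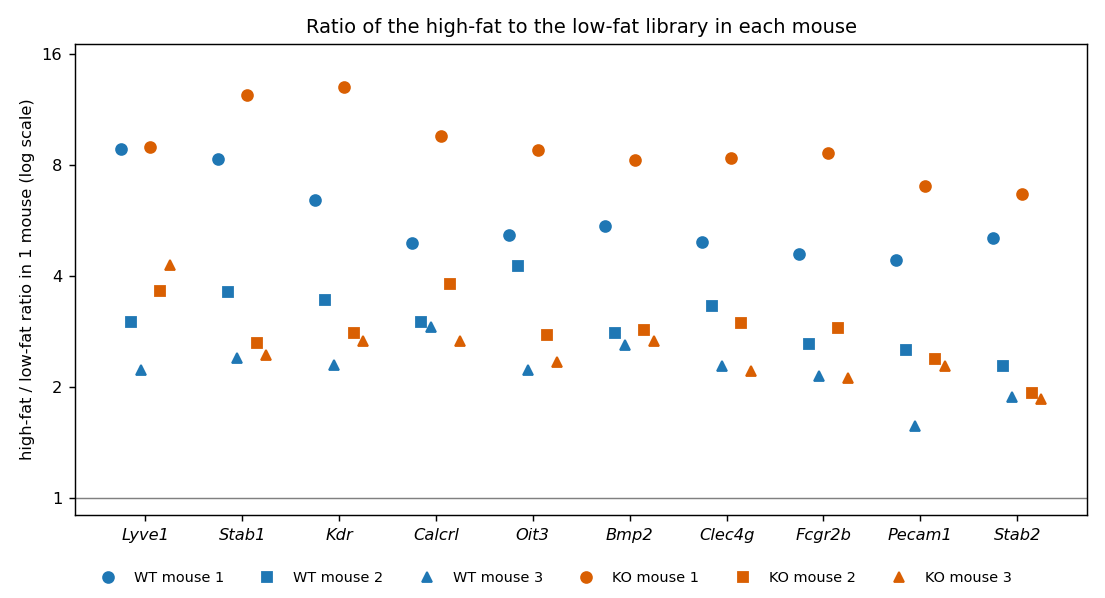
High-fat to low-fat ratio of each marker in each mouse, on a log axis, with markers ordered by their mean; blue stands for WT and orange for KO. Circles, the mice numbered 1, sit between 4.41 and 13.0, and the other 4 mice between 1.57 and 4.28.

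The fraction difference was then examined within each genotype. In WT the median log2 fold change of the markers was 1.72 (range 1.31 to 2.0), and limma called 0 of 10 higher (background 0.0%), with adjusted p-values between 0.055 and 0.10. All 10 had an unadjusted limma p under 0.05, as did 19.4% of all genes. In KO the median was 1.89 (range 1.47 to 2.23) and limma called 7 of 10 higher (background 1.31%). The markers not called in KO were Stab1 (adjusted p = 0.0647), Stab2 (0.0835) and Pecam1 (0.0551), and Kdr was close to the threshold (0.0497).

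These counts within a genotype were unstable. In WT 10 of 10 markers were called by limma in a fit of the 6 WT libraries alone, without KO mouse 1, or without both mice numbered 1, and 9 of 10 with the mouse as a random effect. In the same order, these fits called 746 of 15722, 888 of 16247, 334 of 15951 and 347 of 16563 of all genes higher. In KO the count was 0 in a fit of the 6 KO libraries alone, 10 with the mouse as a random effect or without both mice numbered 1, and 5, 0, 0, 2, 0 and 0 without WT mouse 1, 2 and 3 and KO mouse 1, 2 and 3. The calls over all genes moved as well. In KO 0 genes were called higher in the KO libraries alone and without WT mouse 2 or 3 or KO mouse 2 or 3. The random effect gave 494 of 16563 and the fit without both mice numbered 1 gave 347 of 15951. Without WT mouse 1 it was 147 of 16275, and without KO mouse 1 it was 69 of 16247.

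The interaction, which tests whether the fraction difference itself depends on genotype, gave 0 of 10 calls (background 0.0%). Its median over the markers was 0.254 on the log2 scale (range 0.0442 for Stab2 to 0.372 for Lyve1), with unadjusted limma p-values from 0.39 to 0.94, and 66 genes (0.398%) had an unadjusted p under 0.05. The intervals were wide. For Stab1 the 95% confidence interval ran from -1.40 to 1.49 and for Calcrl, the narrowest, from -0.557 to 1.3. Without KO mouse 1 the estimates of 9 of 10 markers turned negative, so no direction can be given.

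Levels in KO were next set against WT within each fraction. In low-fat libraries all 10 markers were lower in KO, with a median log2 fold change of -0.712 (range -0.842 for Pecam1 to -0.456 for Stab2) against -0.0036 for all genes. limma called 0 of 10 (background 0.00604%, that is 1 gene, Ptprk). An unadjusted limma p under 0.05 was found for Calcrl (0.035), Fcgr2b (0.037) and Clec4g (0.045), and for 1.72% of all genes. The 3 KO libraries were all below the 3 WT libraries for 7 of 10 markers, against 2.97% of all genes. The exceptions were Stab1, Stab2 and Oit3, in which at least 1 of KO mice 2 and 3 lay above the lowest WT value. A two-sided exact permutation test of Clec4g, Lyve1, Pecam1, Kdr, Fcgr2b, Calcrl and Bmp2 gave p = 0.1 each, the smallest value that 3 against 3 mice allow. Within pairs of WT and KO mice of the same number, KO was lower in each of 3 pairs for 9 of 10 markers (background 10.6%). The exception was Oit3, and with the number as a block limma again called 0 of 10. The markers followed each other closely over the libraries, and the low-fat library of KO mouse 1 was the lowest for all 10. Counts of markers in KO against WT are therefore not independent results, here or in the high-fat libraries below.

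Other lists read lower in KO low-fat libraries as well. The median log2 fold change was -0.758 for Kupffer genes (0 of 11 higher), -0.607 for pan-endothelial genes (0 of 15 higher), -0.592 for other sinusoidal genes (0 of 11 higher) and -0.469 for stellate genes (1 of 10 higher), against 0.0509 for hepatocyte genes (7 of 10 higher). In high-fat libraries these medians were -0.115, -0.509, -0.446, -0.0204 and 0.0236. No difference between the lists was tested, and limma called 0 of their genes.

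The low-fat library of KO mouse 1 carried part of this difference. Without that mouse the median was -0.439, with a range from -0.703 to -0.0977. Pecam1 read 148, 108 and 130 in WT and 85 and 72 in KO mice 2 and 3, and so stayed apart without it, whereas Stab1 read 333, 389 and 375 in WT and 372 and 317 in these mice.

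In high-fat libraries all 10 markers were again lower in KO, with a median log2 fold change of -0.421 (range -0.612 for Oit3 to -0.289 for Lyve1) against -0.014 for all genes. limma called 0 of 10 (background 0.00604%, again Ptprk), and 0 of 10 had an unadjusted p under 0.05. The libraries of both genotypes overlapped for all 10 markers, while KO lay below WT without overlap for 2.49% of all genes. The 95% confidence interval for Clec4g ran from -1.3 to 0.158 and that for Lyve1 from -1.29 to 0.709. Leaving out WT mouse 1, which held the highest value of each marker, moved the median to -0.0767 and turned Lyve1 to 0.382.

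**Figure D3:**
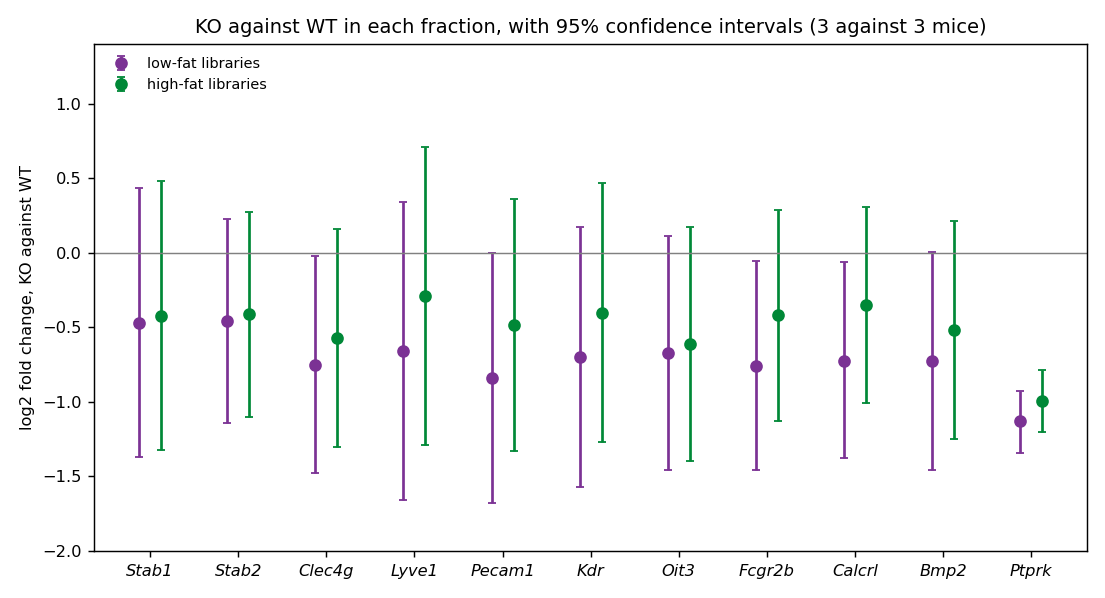
Log2 fold change of KO against WT for the 10 markers and Ptprk in low-fat (purple) and high-fat (green) libraries, with 95% confidence intervals from limma (3 against 3 mice). All marker estimates lie below 0, between -0.842 and -0.289, and their intervals cross 0 except for Clec4g, Fcgr2b and Calcrl in low-fat libraries; those of Ptprk do not cross it.

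Other endothelial genes were taken from lists named by vessel type. For the lists here and below, rose and fell mean called by limma in the main fit. Of all 16563 genes tested, that fit called 1119 (6.76%) higher and 700 lower. Of 15 pan-endothelial genes 13 rose in high-fat libraries and 0 fell (median log2 fold change 1.53). Among them were Cdh5, the cadherin of endothelial junctions (1.83, SE 0.26, limma adjusted p = 0.0066), and Robo4, a guidance receptor of endothelium (1.81). The genes not called were Ushbp1 (1.46, limma adjusted p = 0.062) and S1pr1 (0.0287), both named after their values were seen. S1pr1 read 1056 to 2272 reads per 20 M in low-fat and 1321 to 2034 in high-fat libraries, and which cells gave these reads was not tested.

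Of 11 other sinusoidal genes tested, 10 rose (median 1.71), led by Ptgs1, a cyclooxygenase (2.36), Cyp4b1, a cytochrome P450 (1.91), Flt4, the receptor of vascular endothelial growth factor C (1.89), and Ehd3, an endocytic recycling protein (1.76). Gata4, a factor that sets sinusoidal identity, was not called (0.112, limma adjusted p = 0.19) and was named after its values were seen. It read 441 to 659 reads per 20 M in low-fat and 495 to 706 in high-fat libraries, and which cells gave these reads was not tested. Cd209b did not pass the filter on low values, with 0 to 8 reads per 20 M.

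Of 8 genes of pericentral endothelium, 3 passed the filter on low values through the high-fat libraries alone, and so their values are given without a test. Among these 3, the Wnt ligand Wnt2 read 0 to 13 reads per 20 M in low-fat and 28 to 102 in high-fat libraries, and the Wnt enhancer Rspo3 2 to 10 and 30 to 85. Of the other 5 genes 3 rose and 1 fell. Kit (2.16) and Cdh13 (1.96) were among those that rose, and Lhx6 fell by 0.642 on the log2 scale. Of 10 genes of portal, arterial and large vessels 5 rose (median 0.886), with Plvap, the protein of fenestral diaphragms, at 2.38 and Ltbp4 at 1.69. Of 4 lymphatic genes 2 were tested: Reln, which is counted in the stellate cell list as well, rose (2.43) and Prox1, which hepatocytes also express, did not pass (-0.117). Ccl21a was at 0 in all libraries and Pdpn at 1 or less.

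Ligands and partners of the marker receptors moved unevenly. The share of all genes called higher was 6.76%. Of 14 tested that did not owe their place to the high-fat libraries alone, 6 rose and 0 fell, with a median of 0.18. Flt1, the second receptor of vascular endothelial growth factor A, rose by 1.87 (SE 0.24, limma adjusted p = 0.0052) and Flt4 by 1.89. The other 2 genes passed the filter only through high-fat libraries and are given without a test: Ramp1, a partner of the Calcrl protein, read 0 to 6 reads per 20 M in low-fat and 14 to 27 in high-fat libraries, and Adm, the gene of its ligand adrenomedullin, 0 to 7 and 6 to 28. Vegfa, at 1444 to 3982 reads per 20 M in low-fat libraries, differed by 0.0238 (SE 0.17, limma adjusted p = 0.95), and Ramp2 by -0.0283 (SE 0.05, limma adjusted p = 0.75). Both were named after their values were seen.

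The next 2 lists are again to be set beside 6.76% of all genes called higher. Of 13 transcription factors of sinusoidal endothelium, Tfec passed the filter only through high-fat libraries. It read 5 to 13 reads per 20 M in low-fat and 18 to 73 in high-fat libraries. Of the other 12, 8 rose and 0 fell (median 1.07), among them the ETS factors Erg (1.67) and Fli1 (1.38), and Sox18 (1.36). Of 8 other scavenger and lectin receptors 3 rose, namely Clec1b (2.39), Mrc1, the mannose receptor (2.03), and Cd36, a fatty acid and lipoprotein receptor (0.594), and Scarb1 fell by 0.19. The calls of Lhx6 and Scarb1 as lower were lost without the mouse as a block, and that of Scarb1 also with the deposited scaling alone and without both mice numbered 1. Without both mice numbered 1, limma called 12 of 15 pan-endothelial genes and 10 of 11 other sinusoidal genes higher, and 851 of all 15951 genes tested. Fewer transcription factors and fewer ligands and partners were called in that fit and in the fit without the block than in the main fit. The counts of these 2 lists include genes that passed the filter only through high-fat libraries, and so they are not given. In KO against WT, limma called 0 genes of these lists in either fraction.

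**Figure D4:**
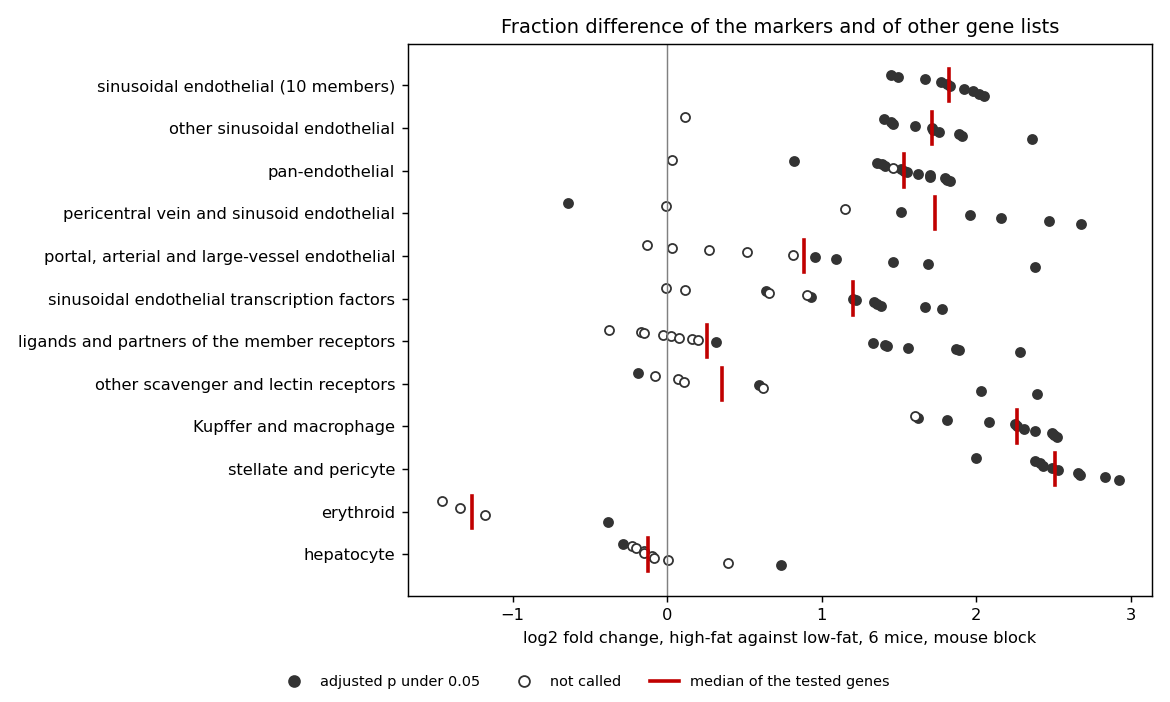
Log2 fold changes between the fractions (high-fat over low-fat, 6 mice, mouse block) for the genes of 12 lists; filled points passed limma at an adjusted p under 0.05, open points did not, and red bars are medians. The 10 markers sit between 1.45 and 2.05, the stellate and Kupffer lists have medians of 2.51 and 2.26, and the hepatocyte list centres at -0.122. Also drawn are Rspo3, Wnt2, Wnt9b, Tfec, Adm, Ramp1, Marco, Col1a1 and Des, which passed the filter only through high-fat libraries. Whether filled or open, their points are not read as a test, and the medians include them.

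Markers of other non-parenchymal cells rose alongside, where 6.76% of all genes were called higher. Of 11 Kupffer cell and macrophage genes 10 rose and 0 fell (median 2.26), or 9 of 10 without Marco, which passed the filter only through high-fat libraries. For the Kupffer list the count without the mouse as a block includes Marco, and so it is not given. The list was led by C1qc at 2.52, Clec4f, a Kupffer cell lectin, at 2.5, Cd5l at 2.49 and C1qb at 2.38. Of 10 stellate cell and pericyte genes 10 rose (median 2.51), or 8 of 8 without Col1a1 and Des, which passed the filter only through high-fat libraries. The matrix genes Col3a1 and Dcn stood at 2.92 and 2.83, and Lrat, the enzyme of retinol storage, at 2.67. Their summed levels moved from 514 to 1447 reads per 20 M in low-fat libraries to 2290 to 12539 in high-fat libraries for the Kupffer list, and from 163 to 765 to 2376 to 4105 for the stellate list. The 10 endothelial markers summed to 1076 to 2728 and 4636 to 14483.

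Mouse by mouse, the summed ratio of the endothelial markers was 5.66, 2.88 and 2.14 in WT mice 1, 2 and 3 and 8.78, 2.48 and 2.24 in KO mice 1, 2 and 3. For the Kupffer list it was 11.1, 1.79 and 3.55 in WT and 21.1, 3.16 and 3.11 in KO, and for the stellate list 6.40, 7.52 and 3.51 in WT and 19.4, 5.44 and 3.82 in KO mice. KO mouse 1 had the largest ratio in all 3 lists. WT mouse 1 had the largest WT ratio for endothelial and Kupffer genes but not for stellate genes, where WT mouse 2 exceeded it. The Kupffer and stellate lists include Marco, Col1a1 and Des, which passed the filter only through high-fat libraries. Their counts and medians in the fit without both mice numbered 1 include these genes, and so they are not given. The part of Kupffer and stellate cells in the rise of Stab1, Fcgr2b and Pecam1, which macrophages can express, was not tested.

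**Figure D5:**
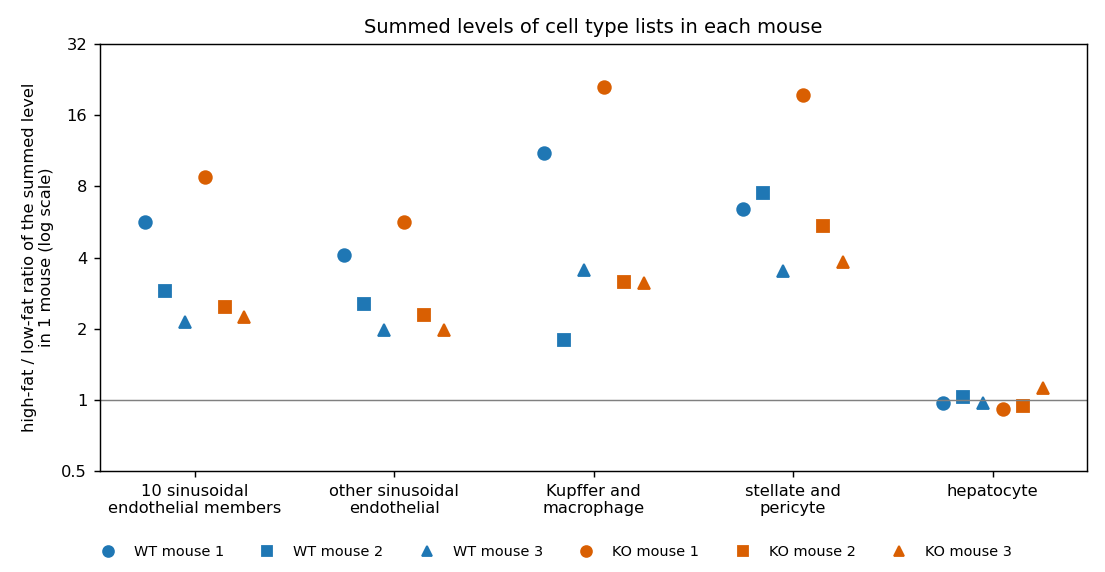
High-fat to low-fat ratio of the summed level of 5 gene lists in each mouse, on a log axis. Endothelial ratios lie between 2.14 and 8.78, Kupffer ratios between 1.79 and 21.1, stellate ratios between 3.51 and 19.4, and hepatocyte ratios between 0.911 and 1.12.

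Few genes of blood and duct cells could be tested. Tested were 2 of 5 B cell genes, 1 of 5 T and NK cell genes and 1 of 4 platelet genes, of which limma called 0. Among these 4 the platelet gene Itga2b had the only unadjusted limma p under 0.05 (log2 fold change 0.7, limma adjusted p = 0.081). The T and NK list summed to 4 to 47 reads per 20 M in low-fat and 5 to 43 in high-fat libraries. All 4 neutrophil genes stayed below the filter, with a summed level of 3 to 40. Of 2 cholangiocyte genes tested Sox9 fell by 0.591, and Krt19, Krt7, Epcam and Cftr did not exceed 7 reads per 20 M. Of 4 erythroid genes tested Alas2, which the liver expresses too, fell by 0.38, with 0 others called. Of 10 hepatocyte genes Cyp2e1 rose by 0.735 and Hnf4a fell by 0.284, and the summed ratio of this list stayed between 0.911 and 1.12 over the mice. Without the mouse as a block the calls of Sox9, Alas2 and Hnf4a as lower were lost.

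Across the 12 libraries the markers followed each other closely: Pearson's r of the log2 level of each with the mean of the other 9 ran from 0.972 (Lyve1) to 0.995 (Clec4g and Fcgr2b). Among 10507 other genes averaging 100 reads per 20 M or more, the 8 most like the mean of the markers were Mrc1 (r = 0.9968), Ehd3 (0.9958), Itga9 (0.9954), Aqp1 (0.9954), Slc43a3 (0.9942), Cd300lg (0.9934), Rgl1 (0.9928) and Adgrl4 (0.9914). These libraries come in pairs from 6 mice and share the fraction difference, so the coefficients describe the libraries and carry no test. Mrc1 read 109 to 309 reads per 20 M in low-fat and 573 to 2254 in high-fat libraries. Itga9, an integrin subunit, read 58 to 179 and 309 to 973, and Aqp1, a water channel, 239 to 614 and 909 to 2544. For each of these 3 genes the fractions did not overlap, which was so for 4.44% of all genes. They were picked for following markers whose own fractions lay apart, so this adds no support.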

How the data were processed

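RNA sequencing values of 12 libraries of 6 mice were used. The deposited values are a score: the authors scaled gene read counts to 20 M per library and rounded them up, as read from the column sums and gaps among low values. The genome build is mm9, per the submitters' processing notes. The aligner, counter, annotation and strandedness are not given in the sources used here. Of 52636 gene identifiers 52403 were found in GENCODE M21, whose exon lengths and GRCm38 coordinates were used.

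limma 3.58.1 (R 4.3.3) with an intensity trend was run on log2(value + 2) after TMM scaling (factors 0.9374 to 1.075) for the 16563 genes that reached 10 reads per 20 M in 3 or more libraries. Fold changes are on this scale. p-values were adjusted by Benjamini-Hochberg over all 16563 genes, and genes were called at an adjusted p under 0.05. Fraction comparisons and their interaction had a term for each mouse as replicate block, which leaves 4 residual degrees of freedom. KO was compared with WT by group means of all 12 libraries. The fit was tested on simulated data. Exact tests used SciPy 1.17.1.

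Both libraries of a mouse share its code in the labels. Their deviations from the group means correlated across genes with r of 0.469 to 0.582 in WT and -0.00869 to 0.46 in KO. WT and KO mice that share a replicate number are different animals. Their deviations correlated with r of 0.251 to 0.396 in low-fat libraries (each pair above 0.1) and of -0.171 to 0.49 in high-fat libraries. KO was compared with WT without this number, and with it as a block as an alternative.

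The markers, other lists and tests were chosen with earlier results of these data known. Named are all 10 markers, Ptprk, up to 4 called genes per list with the largest change (up to 2 abundant ones where 0 were called), and the 8 genes most correlated with the markers; others are said to be picked later. Depth was estimated from gaps among low values and covers counting error only. Alternatives covered scaling, pseudocounts of 0.5 and 10, the filter, the trend, the block, the libraries fitted and leaving out mice.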

Additional observations from a re-analysis of the deposited data

How the results depend on the processing

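Over all 6 mice, limma called 9 to 10 of the 10 markers higher in high-fat libraries under each of the 16 alternatives. Over all genes tested, these fits called from 427 of 16275 (without WT mouse 1) to 1548 of 16374 (without KO mouse 2) higher. Without the trend it was 633 of 16563. Stab2 was lost without WT mouse 2 (limma adjusted p = 0.051) and without the intensity trend (0.056). Without the replicate block 10 were called over all mice, 0 in WT and 7 in KO, so the block changed no count of markers, while over all genes it moved the calls from 956 to 1819. In WT, where 0 markers were called, the deposited scaling alone gave 3, a pseudocount of 10 gave 2, the mouse as random effect 9, the 6 WT libraries alone 10, and the fit without both mice numbered 1 also 10. Leaving out 1 mouse gave 0 to 10. Over all genes tested in WT, 0 were called higher in the main fit, 122 with the deposited scaling alone and 118 with a pseudocount of 10. In KO, against 7, no filter and a stricter filter gave 4 each, the 6 KO libraries alone 0, the fit without the trend 0, the deposited scaling 8, and the mouse as random effect and the fit without both mice numbered 1 gave 10 each, and leaving out 1 mouse gave 0 to 5. Over all genes tested in KO, 217 were called higher in the main fit, 90 of 30472 without a filter and 122 of 11951 with the stricter filter. Without the trend 3 were called higher, and with the deposited scaling 281. Where a mouse left a group with 2, these were assumed to vary like the other groups. For KO against WT, 0 markers were called in each fraction under each of the 16 alternatives, the replicate number as a block included.

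Interaction estimates changed sign when 1 mouse was left out. Their log2 ranges were -0.661 to 0.522 for Stab1, -0.505 to 0.451 for Stab2, -0.328 to 0.543 for Clec4g, -0.0244 to 0.939 for Lyve1, -0.392 to 0.673 for Kdr, -0.471 to 0.39 for Oit3, -0.111 to 0.718 for Pecam1, -0.204 to 0.723 for Fcgr2b, -0.0905 to 0.729 for Calcrl and -0.255 to 0.522 for Bmp2. Without both mice numbered 1 they were -0.184 for Stab1, -0.0966 for Stab2, -0.0681 for Clec4g, -0.0156 for Kdr and -0.244 for Oit3, and above 0 for Lyve1 (0.613), Pecam1 (0.249), Calcrl (0.133), Fcgr2b (0.0929) and Bmp2 (0.0596), with a median of 0.022. Lyve1 in KO against WT high-fat libraries ranged from -0.688 to 0.382 when 1 mouse was left out and was 0.166 without both mice numbered 1. Over the alternatives the log2 fold change of Ptprk itself stayed between -1.18 and -1.06 in low-fat libraries (limma adjusted p from 0.00063 to 0.071) and between -1.09 and -0.931 in high-fat libraries (0.0021 to 0.7), so its call, though not its direction, was lost under some of them. For these changes the cause was not tested. DESeq2 was not run, because the values are not raw counts. Whether depth or the 3 mice per group set which genotype differences were called was not tested. Unadjusted 95% intervals excluded 0 for Clec4g, Fcgr2b and Calcrl in low-fat libraries only.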
